A study of Mus musculus with 12 samples.

Results

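A set of 10 carriers of amino acids and peptides was read in the small intestine of mice given melphalan, with or without mesenchymal stem cells. They are Slc7a5, Slc3a2, Slc7a8, Slc1a1, Slc1a5, Slc3a1, Slc7a9, Slc6a19, Slc7a7 and Slc15a1, chosen by name for their roles in amino acid uptake and in the import of melphalan. The 10 carriers are part of a table of 55484 genes, of which 12847 reached 1 FPKM or more in at least 3 libraries and were tested. All 10 carriers passed that filter. FPKM is the fragment count of a gene divided by the length of its transcript and by the size of the library.

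RNA was sequenced in 12 libraries of small intestine, 3 in each of 4 groups. MSC+Mel is labelled as mesenchymal stem cells with melphalan, Mel+MSC as melphalan with mesenchymal stem cells, Melphalan as the drug alone, and Control as a wild type control. The series title gives the cells as human, from umbilical cord, and no dose, time, age, strain or meaning of the order of the names was given. Whether the 3 libraries of a group are separate animals is not stated, so a p-value here covers the spread among libraries alone, and that spread may be technical.

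Melphalan is a nitrogen mustard built on phenylalanine, so cells take it up through carriers for large neutral amino acids, above all LAT1, the product of Slc7a5, and also LAT2, the product of Slc7a8. Both are light chains that reach the membrane only as a pair with the heavy chain 4F2hc (CD98), the product of Slc3a2. In the villus, enterocytes take up free amino acids and small peptides across the brush border and release them to the blood through basolateral exchangers, whereas dividing crypt cells import amino acids for their own growth.

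Most of the carriers were abundant. Mean levels over the 12 libraries ran from 88.7 FPKM for Slc7a8 to 178 FPKM for Slc3a2 among 7 of them, which are Slc3a2, Slc7a8, Slc3a1, Slc7a9, Slc6a19, Slc7a7 and Slc15a1. Slc1a1 averaged 12.2 FPKM, Slc1a5 8.59 FPKM and Slc7a5 2.43 FPKM. Slc7a5 thus stood at the 21.5th percentile of the tested genes, and Slc3a2 at the 95.9th.

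The tissue label was matched by the markers. All 12 villus enterocyte genes and all 12 pan-epithelial genes were above 0 in every library. Genes of the pancreas, which could be carried over from beside the gut, summed to no more than 34.0 FPKM in a library over 10 genes. Melphalan library 2 stood apart: its 10 B cell genes summed to 616 FPKM, against 0.915 to 73.8 FPKM in the other 11 libraries. Its T cell genes summed to 186 FPKM and its macrophage genes to 724 FPKM, each the highest of all. The macrophage genes Adgre1, Mrc1, Cd163 and Itgam were not raised in it. Its 12 pan-epithelial genes summed to 2710 FPKM, the lowest of all. Mel+MSC library 3 had the lowest villus enterocyte sum, 10400 FPKM, against 13800 FPKM in Control library 1 and up to 64500 FPKM in another library. Not every gene of that list was low in it, since its Sis, Mttp and Lct were the highest of the Mel+MSC group. Values without these libraries are given beside some of the results, and not beside every result that they move.

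Promoter sequences of 3 carriers are shown from RefSeq (build GRCm38.p6), each running from 250 bases before to 50 bases after the annotated start. Slc1a1 was the carrier with a called change, Slc15a1 stood above Control in every Melphalan library, and Slc3a1 holds a 9-letter match to the motif of HNF4, a nuclear receptor of enterocytes. Capitals mark that match, CAAAGTCCA, and lower case is all else.
Slc1a1 chr19:28834885-28835184, plus strand: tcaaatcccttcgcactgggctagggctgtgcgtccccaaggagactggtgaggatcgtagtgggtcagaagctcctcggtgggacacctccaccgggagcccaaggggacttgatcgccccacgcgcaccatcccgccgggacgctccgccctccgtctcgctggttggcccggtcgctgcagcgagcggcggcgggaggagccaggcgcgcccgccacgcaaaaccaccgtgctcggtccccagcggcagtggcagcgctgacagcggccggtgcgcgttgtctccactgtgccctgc
Slc15a1 chr14:121505205-121505504, minus strand: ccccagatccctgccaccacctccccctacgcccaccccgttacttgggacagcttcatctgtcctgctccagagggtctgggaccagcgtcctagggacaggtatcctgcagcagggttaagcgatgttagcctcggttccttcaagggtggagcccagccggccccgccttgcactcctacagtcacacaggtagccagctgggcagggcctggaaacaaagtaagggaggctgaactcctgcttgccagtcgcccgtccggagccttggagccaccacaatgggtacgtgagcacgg
Slc3a1 chr17:85028097-85028396, plus strand: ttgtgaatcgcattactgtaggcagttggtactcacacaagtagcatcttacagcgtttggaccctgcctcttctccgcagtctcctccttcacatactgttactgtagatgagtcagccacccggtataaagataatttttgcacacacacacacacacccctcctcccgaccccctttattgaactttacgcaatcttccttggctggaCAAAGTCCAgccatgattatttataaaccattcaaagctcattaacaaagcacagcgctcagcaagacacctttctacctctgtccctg

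RefSeq promoters were found for 8 of the 10 carriers, in 13 entries, and none was used for Slc7a5 and Slc1a5. Both strands were searched for CAAAGTCCA and for TGATGNAA, the core of the element that ATF4 and C/EBP factors read in amino acid shortage. CAAAGTCCA was in the Slc3a1 entry alone among the 13, at position -39 from the start, and in 0.475% of all 32851 promoters of that length. TGATGNAA was in 2 of the 5 entries of Slc7a7, which overlap, and in 3.97% of all promoters. The Slc1a1 promoter was rich in G and C at 70.3%, against 46.3% for Slc3a1 and a median of 52.7% over all promoters. A match is a string of letters in this window and says nothing of a bound factor.

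**Figure D1:**
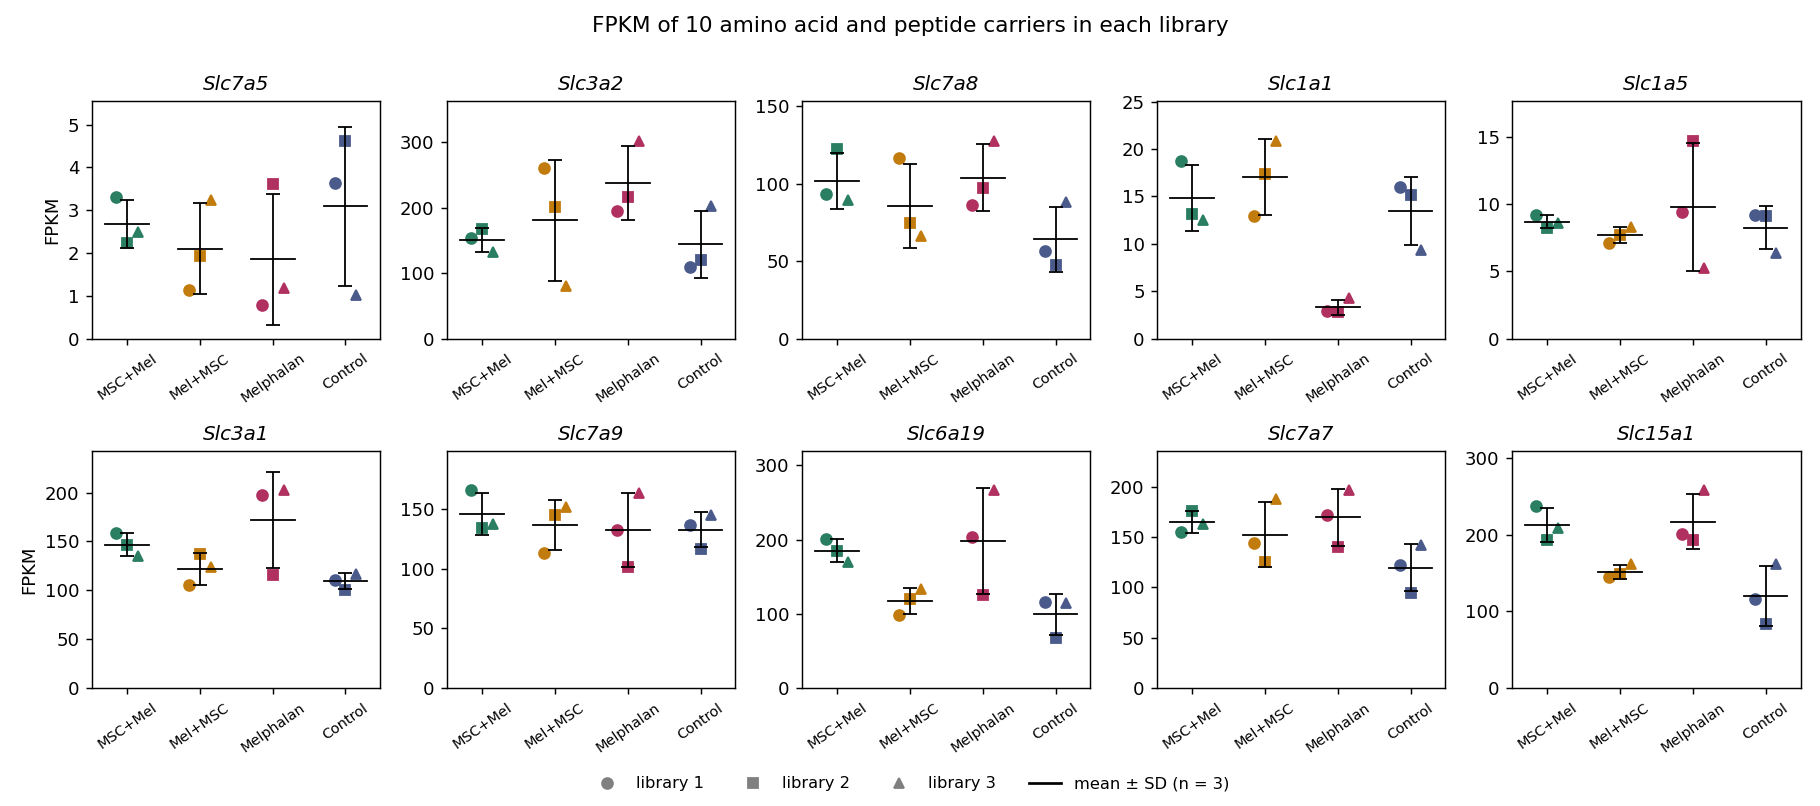
FPKM of the 10 carriers, with 1 point per library, the 4 groups on the horizontal axis, and the mean with its SD (n = 3 libraries) in black. Slc1a1 sits between 2.80 and 4.24 FPKM in the Melphalan libraries and at 9.39 FPKM or more in all others, whereas the groups overlap for Slc7a5 and Slc1a5.

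Melphalan against Control asks what the drug alone did to the carriers. Slc1a1 fell, and no other carrier was called. Slc15a1 and Slc6a19 stood higher in every Melphalan library than in every Control library without passing the threshold. The call is an adjusted p under 0.05 in limma, with Benjamini-Hochberg adjustment over all tested genes. It took in 1 of the 10 carriers, in a comparison where 1.33% of all genes were called, and 6 of the 10 had an unadjusted p under 0.05, as did 18.2% of all genes. The median log2 change was 0.56 over the carriers and 0.03 over all tested genes.

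Among the melphalan importers, Slc7a5 (LAT1) had 0.773, 3.60 and 1.18 FPKM in the Melphalan libraries, against 3.63, 4.62 and 1.03 FPKM in the Control libraries. The groups overlapped, and Control library 3 lay below Melphalan libraries 2 and 3. The fitted log2 change was -0.52 (95% interval -1.48 to 0.43, limma adjusted p = 0.561), an interval that holds both a clear loss and a small gain, and it was -0.93 without Melphalan library 2 (adjusted p = 0.221). Slc7a5 (chr8:121881150-121907694, minus strand, GRCm38) was the scarcest of the 10 carriers.

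Slc3a2, the heavy chain that Slc7a5, Slc7a8 and Slc7a7 all need, had 196, 217 and 302 FPKM in the Melphalan libraries, against 109, 120 and 203 FPKM in the Control libraries. Control library 3 alone reached into the Melphalan range. On the log2 scale the difference was 0.75 (95% interval -0.11 to 1.62, limma adjusted p = 0.342). The gene lies at chr19:8706882-8723369 on the minus strand.

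Slc7a8 (LAT2), the exchanger of neutral amino acids on the basolateral side of enterocytes, had 86.0, 97.3 and 128 FPKM in the Melphalan libraries, against 56.7, 47.6 and 87.9 FPKM in the Control libraries. Control library 3 again lay just inside the Melphalan range. Slc7a8 differed by a log2 change of 0.71 (95% interval 0.10 to 1.33) and its adjusted p in limma was 0.212. Slc7a8 lies at chr14:54722209-54781946 on the minus strand.

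Slc1a5 (ASCT2), an exchanger of glutamine and other small neutral amino acids, had 9.39, 14.7 and 5.25 FPKM in the Melphalan libraries, against 9.19, 9.13 and 6.39 FPKM in the Control libraries. The highest and the lowest value both came from Melphalan libraries. The highest was in library 2, with its high sums of B cell, T cell and macrophage genes. The part of these cells in the Slc1a5 and Slc7a5 values of that library was not tested. Slc1a5 differed by a log2 change of 0.14 (95% interval -0.47 to 0.75, limma adjusted p = 0.815). Without Melphalan library 2 it turned to -0.18 (adjusted p = 0.689). Slc1a5 lies at chr7:16781340-16798274 on the plus strand.

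Slc1a1 (EAAT3), which carries glutamate and aspartate, and cysteine, into epithelial cells and neurons, had 2.91, 2.80 and 4.24 FPKM in the Melphalan libraries, against 16.0, 15.1 and 9.39 FPKM in the Control libraries. Each Melphalan library lay below each Control library, as for 10.7% of all tested genes. The mean was 3.32 ± 0.80 FPKM in Melphalan and 13.5 ± 3.6 FPKM in Control (SD, n = 3 each). Slc1a1 fell by 1.73 on the log2 scale of FPKM + 1 (SE 0.25, limma adjusted p = 0.0144), a fold of 0.301 with a 95% interval of 0.205 to 0.443. Slc1a1 (chr19:28835049-28913960, plus strand) was also the only carrier called by the F test over all 4 groups (limma adjusted p = 0.0179), which called 0.576% of all genes.

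The labels do not say that a replicate number pairs libraries. Same-numbered libraries of these 2 groups deviated together weakly (r = 0.124, 0.233 and 0.184 over genes), which is a hint alone. With the number as a block over all 12 libraries the adjusted p of Slc1a1 in limma was 0.0484. That fit called 73 genes in all, against 171 without the block. The call was lost without Control library 1 (adjusted p = 0.0853) or Control library 2 (adjusted p = 0.0729), and in a fit on these 2 groups alone (adjusted p = 0.109). Without Melphalan library 2 the adjusted p was 0.0236.

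Genes of crypt proliferation, such as Mki67, Top2a and Ccnb1, moved with Slc1a1. Their 12 genes summed to 120 to 165 FPKM in Melphalan and 239 to 404 FPKM in Control, with none at 0 in any library. Of the 12, 5 fell while 0 rose, where 1.33% of all genes were called. Of 8 crypt stem cell genes 7 were tested and 1 fell, with a median log2 change of -0.17 over the 7. The sum of the 8 was 36.5 to 45.2 FPKM in Melphalan and 112 to 442 FPKM in Control. Most of the Control sum was Olfm4, and every other gene of the list overlapped between the groups. Olfm4, a marker of crypt base cells, had 7.16, 2.37 and 7.99 FPKM in Melphalan libraries, against 399, 361 and 79.5 FPKM in Control libraries. The part of these cells in the Slc1a1 result was not tested, and in bulk tissue fewer cells of a type and less RNA per cell cannot be told apart.

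On the brush border, Slc6a19 (B0AT1), the main sodium-driven carrier of neutral amino acids and the Hartnup disease gene, had 203, 125 and 267 FPKM in the Melphalan libraries, against 116, 67.8 and 115 FPKM in the Control libraries. Every Melphalan library was above every Control library. The fitted log2 change was 0.96 (95% interval 0.32 to 1.60, limma adjusted p = 0.117). Slc6a19 lies at chr13:73679745-73704865 on the minus strand.

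Slc15a1 (PEPT1), which takes up dipeptides and tripeptides with protons, had 200, 193 and 258 FPKM in the Melphalan libraries, against 116, 83.5 and 162 FPKM in the Control libraries. Slc15a1 and Slc6a19 were the 2 carriers that were higher in every Melphalan library, a pattern that 8.82% of all tested genes had. The log2 change of Slc15a1 was 0.89 (95% interval 0.37 to 1.40, limma adjusted p = 0.0893). It lies at chr14:121459621-121505252 on the minus strand.

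Slc3a1 (rBAT) and Slc7a9 (b0,+AT) form the heavy and light chain of the carrier for cystine and basic amino acids, and loss of either causes cystinuria. Slc3a1 had 198, 116 and 202 FPKM in the Melphalan libraries, against 111, 100 and 117 FPKM in the Control libraries. Melphalan library 2 was the one that lay within the Control range. Slc3a1 differed by a log2 change of 0.61 (95% interval 0.11 to 1.10, limma adjusted p = 0.187), and without Melphalan library 2 Slc3a1 and Slc6a19 were called besides Slc1a1.

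Slc7a9 had 133, 102 and 164 FPKM in the Melphalan libraries, against 137, 117 and 145 FPKM in the Control libraries. The means were the same to 3 digits, 133 FPKM in both, and the log2 change was -0.02 (95% interval -0.49 to 0.44, limma adjusted p = 0.967). The interval leaves room for a change in either direction. The genes lie at chr17:85028376-85064236 (Slc3a1, plus strand) and chr7:35448796-35466036 (Slc7a9, plus strand).

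The ratio of heavy to light chain transcript can be read apart from the scale of a library. Slc3a1 over Slc7a9 was 1.14 to 1.49 in the Melphalan libraries, against 0.807 to 0.860 in the Control libraries, with no overlap. The exact two-sided permutation p was 0.1, the smallest that 3 against 3 libraries allow, and 0.17 after adjustment over the 12 ratio tests made.

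Slc7a7 (y+LAT1), the basolateral light chain that releases basic amino acids and whose loss causes lysinuric protein intolerance, had 172, 140 and 196 FPKM in the Melphalan libraries, against 122, 94.8 and 142 FPKM in the Control libraries. Control library 3 reached just past the lowest Melphalan library. Slc7a7 differed by a log2 change of 0.51 (95% interval 0.03 to 0.98, limma adjusted p = 0.251). Slc7a7 lies at chr14:54369442-54417780 on the minus strand, on the same chromosome as Slc7a8 and Slc15a1.

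Villus markers had higher summed levels beside these carriers. The 12 villus enterocyte genes summed to 30200 to 64500 FPKM in Melphalan and 13800 to 26100 FPKM in Control, with all 12 fitted above 0, 0 called in limma and 5 at an unadjusted p under 0.05. Of 12 brush border peptidases and carrier partners 11 were tested, all 11 fitted above 0 (52.4% of all genes were), 0 were called and 6 had an unadjusted p under 0.05. An unadjusted p under 0.05 was found for 18.2% of all genes. Dpep1, a dipeptidase, averaged 285 ± 88 FPKM in Melphalan and 146 ± 46 FPKM in Control (SD, n = 3 each), and Ggt1, a gamma-glutamyl transferase, 620 ± 170 FPKM in Melphalan and 363 ± 81 FPKM in Control. Neither was called (limma adjusted p = 0.123 for Dpep1 and 0.139 for Ggt1). The part of the villus share in the carrier values was not tested.

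Scaling the libraries to their pan-epithelial genes changed which carriers were called. It moved the median log2 change of all genes to 0.32 and the split of calls to 685 higher and 53 lower, against 64 higher and 107 lower in the deposited scale. Slc3a1, Slc6a19 and Slc15a1 were then called besides Slc1a1. Relative to the shifted median their log2 changes were 0.63 for Slc3a1, 0.98 for Slc6a19 and 0.91 for Slc15a1, and that of Slc1a1 was -1.77.

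**Figure D2:**
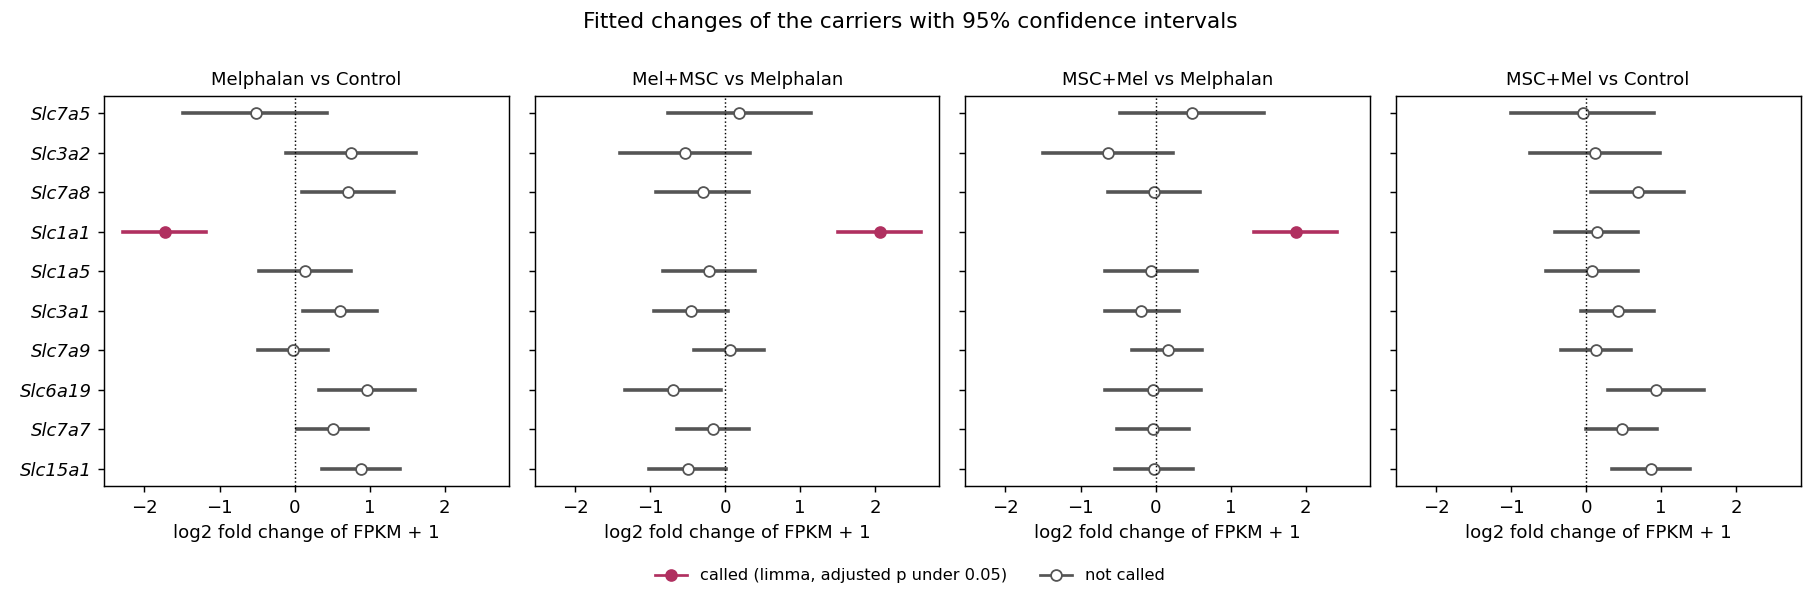
Log2 fold changes of FPKM + 1 for the 10 carriers in 4 comparisons, each with its 95% confidence interval from limma, with filled points for called genes. Slc1a1 lies at -1.73 in Melphalan against Control and at 2.06 and 1.87 in the Mel+MSC and MSC+Mel comparisons with Melphalan, and all other points are open.

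Mel+MSC against Melphalan asks whether the carriers differ when mesenchymal stem cells go with the drug. Slc1a1 was higher in Mel+MSC, and no other carrier was called. That is 1 of 10 carriers, where 0.156% of all genes were called, and 2 carriers had an unadjusted p under 0.05, as did 13.6% of all genes. Slc1a1 had 13.0, 17.4 and 20.9 FPKM in the Mel+MSC libraries, against 2.80 to 4.24 FPKM in the Melphalan libraries. Each Mel+MSC library was above each Melphalan library, as for 8.37% of all tested genes.

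Slc1a1 rose by 2.06 on the log2 scale (SE 0.25, limma adjusted p = 0.0204), a fold of 4.16 with a 95% interval of 2.83 to 6.12. The call was lost without any 1 of Melphalan libraries 1, 2 and 3 and Mel+MSC libraries 2 and 3, at adjusted p-values in limma of 0.0537, 0.0540, 0.0573, 0.0552 and 0.0856. The log2 change stayed between 1.91 and 2.20 in those 5 fits. The call was also lost in a fit on the 2 groups alone (adjusted p = 0.216) and without the filter on low values (adjusted p = 0.0706). With the replicate number as a block it was lost too (limma adjusted p = 0.0906). Crypt proliferation genes summed to 250 to 280 FPKM in Mel+MSC, against 120 to 165 FPKM in Melphalan. Of the 12, 1 rose, where 0.156% of all genes were called.

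Slc15a1, Slc6a19 and Slc3a1 were fitted lower in Mel+MSC, without a call. Slc15a1 had 145, 148 and 162 FPKM in the Mel+MSC libraries, all under the 193 to 258 FPKM of the Melphalan libraries, as for 5.91% of all tested genes. Its log2 change was -0.50 (95% interval -1.02 to 0.01, limma adjusted p = 0.376). Slc6a19 had 98.7, 120 and 134 FPKM in the Mel+MSC libraries, against 125 to 267 FPKM in the Melphalan libraries, with a log2 change of -0.69 (95% interval -1.33 to -0.05, limma adjusted p = 0.339). The ranges of Slc6a19 overlapped only through Mel+MSC library 3 and Melphalan library 2.

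Slc3a1 had 105, 137 and 124 FPKM in the Mel+MSC libraries, against 116 to 202 FPKM in the Melphalan libraries. Slc7a9 had 113, 145 and 152 FPKM in the Mel+MSC libraries, against 102 to 164 FPKM in the Melphalan libraries. Slc7a7 had 144, 125 and 188 FPKM in the Mel+MSC libraries, against 140 to 196 FPKM in the Melphalan libraries. All 3 overlapped, and the ratio of Slc3a1 to Slc7a9 was 0.819 to 0.946 in Mel+MSC, under the Melphalan range of 1.14 to 1.49 (exact permutation p = 0.1, the smallest possible).

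Slc7a5 and Slc3a2, the LAT1 pair, moved apart among the Mel+MSC libraries, though not in this group alone. Over the 12 libraries Pearson's r of their log2(FPKM + 1) was -0.68, and -0.63 for deviations from group means. In Control library 3 and MSC+Mel library 2 the least Slc7a5 of the group went with the most Slc3a2. No Melphalan library held the most of one and the least of the other. Slc7a5 had 1.13, 1.93 and 3.24 FPKM in Mel+MSC libraries 1 to 3, against 0.773 to 3.60 FPKM in the Melphalan libraries. Slc3a2 had 261, 201 and 80.3 FPKM in the same Mel+MSC libraries, against 196 to 302 FPKM in the Melphalan libraries. Mel+MSC library 3 thus held the most Slc7a5 and the least Slc3a2 of its group. It is the library with the lowest villus enterocyte sum, though not with low values of every villus gene. The log2 change was 0.19 (95% interval -0.76 to 1.15) for Slc7a5 and -0.53 (95% interval -1.40 to 0.33) for Slc3a2. Without Mel+MSC library 3 they were -0.06 for Slc7a5 and -0.03 for Slc3a2, with limma adjusted p-values of 0.976 and 0.979. Without Melphalan library 2 the log2 changes were 0.6 for Slc7a5 and -0.59 for Slc3a2 (limma adjusted p = 0.535 and 0.585).

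Slc7a8 had 117, 74.3 and 66.0 FPKM in the Mel+MSC libraries, against 86.0 to 128 FPKM in the Melphalan libraries. Slc1a5 had 7.10, 7.68 and 8.30 FPKM in the Mel+MSC libraries, all within the Melphalan range of 5.25 to 14.7 FPKM. Neither was called, with log2 changes of -0.30 (95% interval -0.92 to 0.32) for Slc7a8 and -0.21 (95% interval -0.83 to 0.40) for Slc1a5. Without Melphalan library 2 that of Slc1a5 turned to 0.11, and without Mel+MSC library 3 that of Slc7a8 was -0.13.

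MSC+Mel against Melphalan gave the same single call. Slc1a1 had 18.8, 13.2 and 12.5 FPKM in the MSC+Mel libraries, against 2.80 to 4.24 FPKM in the Melphalan libraries. All 3 MSC+Mel libraries were higher than all Melphalan libraries, which 16.3% of all tested genes were. Slc1a1 rose by 1.87 on the log2 scale (SE 0.25, limma adjusted p = 0.0103), a fold of 3.65 with a 95% interval of 2.48 to 5.37. It was 1 called carrier of 10, beside 1.24% of all genes, and the only one with an unadjusted p under 0.05, which 22.2% of all genes had. Crypt proliferation genes summed to 265 to 319 FPKM in MSC+Mel, and 4 of the 12 rose; their part was not tested.

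The call in MSC+Mel was lost without Melphalan library 1 (limma adjusted p = 0.0506), MSC+Mel library 1 (0.0800) or MSC+Mel library 2 (0.0611), with log2 changes of 1.80, 1.70 and 1.94. Without Melphalan library 2 it held at an adjusted p of 0.0341.

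Slc3a2 was the other carrier whose libraries did not overlap. It had 153, 167 and 132 FPKM in the MSC+Mel libraries, all under the 196 to 302 FPKM of the Melphalan libraries, as were 17.2% of all tested genes. Its log2 change was -0.64 (95% interval -1.50 to 0.23, limma adjusted p = 0.357). Its partner Slc7a8 had 93.2, 122 and 89.3 FPKM in the MSC+Mel libraries, against 86.0 to 128 FPKM in the Melphalan libraries, with a log2 change of -0.02 (95% interval -0.64 to 0.59). The ratio of Slc3a2 to Slc7a8 was 1.37 to 1.65 in MSC+Mel, against 2.23 to 2.37 in Melphalan (exact permutation p = 0.1, the smallest possible, 0.17 adjusted). MSC+Mel also lay under the 1.92 to 2.52 of Control, with the same exact permutation p, and the Melphalan libraries lay within that Control range.

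Of the brush border carriers, Slc15a1 and Slc6a19 had similar means in MSC+Mel and Melphalan over all libraries, with wide intervals. Slc15a1 had 237, 193 and 208 FPKM in the MSC+Mel libraries, against 193 to 258 FPKM in the Melphalan libraries (log2 change -0.02, 95% interval -0.54 to 0.50). Slc6a19 had 201, 185 and 169 FPKM in the MSC+Mel libraries, against 125 to 267 FPKM in the Melphalan libraries (log2 change -0.04, 95% interval -0.67 to 0.60). As folds the intervals were 0.688 to 1.41 for Slc15a1 and 0.627 to 1.52 for Slc6a19. Without Melphalan library 2 the log2 changes were -0.10 for Slc15a1 and -0.33 for Slc6a19.

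Slc3a1 had 158, 146 and 135 FPKM in the MSC+Mel libraries, against 116 to 202 FPKM in the Melphalan libraries. Slc7a9 had 166, 134 and 138 FPKM in the MSC+Mel libraries, against 102 to 164 FPKM in the Melphalan libraries. Slc7a7 had 155, 176 and 163 FPKM in the MSC+Mel libraries, against 140 to 196 FPKM in the Melphalan libraries. The ranges of these 3 genes overlapped, with log2 changes of -0.19, 0.16 and -0.03 in that order, and -0.45, -0.02 and -0.16 without Melphalan library 2. Slc3a1 over Slc7a9 was 0.954 to 1.09 in MSC+Mel, under the 1.14 to 1.49 of Melphalan and above the 0.807 to 0.860 of Control (exact permutation p = 0.1 for each, the smallest possible).

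Slc7a5 had 3.32, 2.23 and 2.48 FPKM in the MSC+Mel libraries, against 0.773 to 3.60 FPKM in the Melphalan libraries, with a log2 change of 0.48 (95% interval -0.47 to 1.44). Without Melphalan library 2 that of Slc7a5 was 0.89 (limma adjusted p = 0.196). Slc1a5 had 9.17, 8.22 and 8.58 FPKM in the MSC+Mel libraries, against 5.25 to 14.7 FPKM in the Melphalan libraries, with a log2 change of -0.06 (95% interval -0.67 to 0.55), which turned to 0.26 without Melphalan library 2. Neither range separated from the Melphalan libraries. The spread between libraries was narrow in MSC+Mel, with a coefficient of variation of 5.56% for Slc1a5, against 48.4% in Melphalan.

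**Figure D3:**
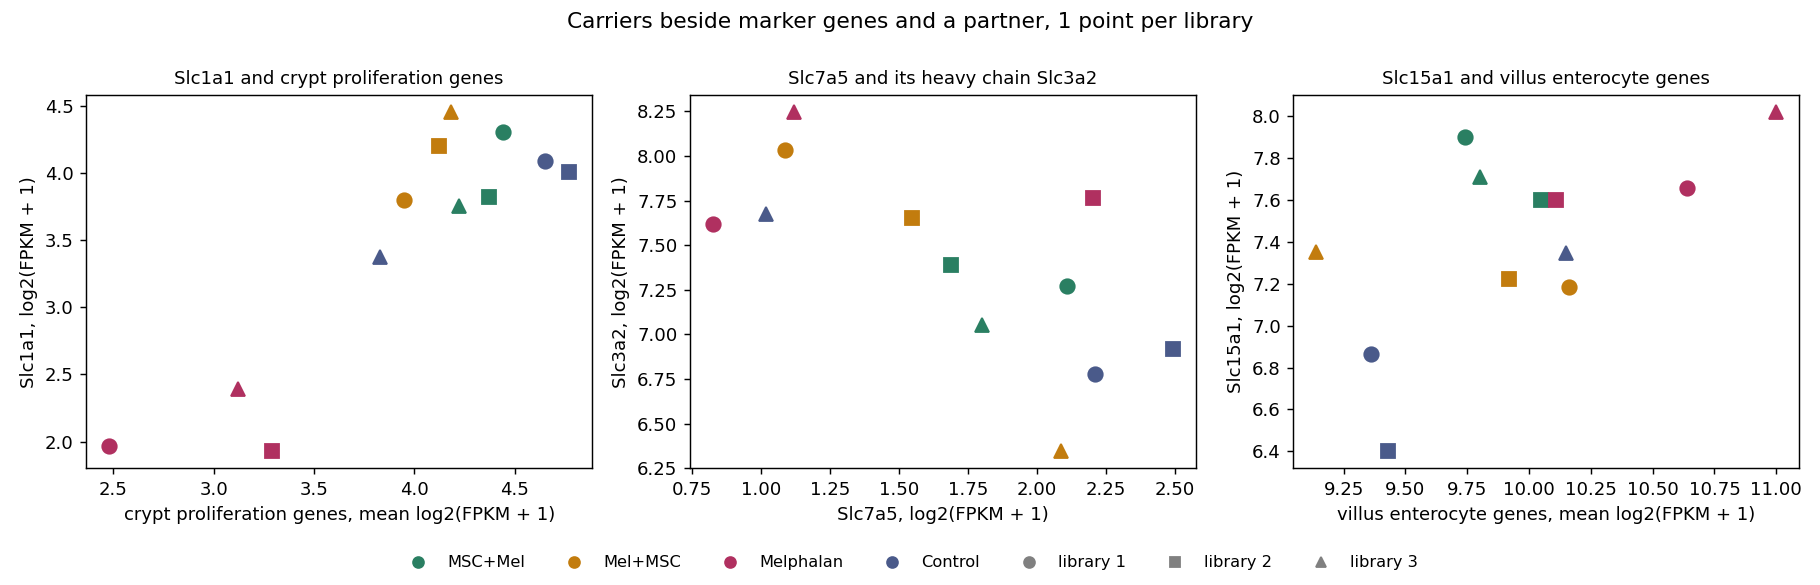
Log2(FPKM + 1) of Slc1a1 against the mean of 12 crypt proliferation genes, of Slc3a2 against Slc7a5, and of Slc15a1 against the mean of 12 villus enterocyte genes, with 1 point per library coloured by group. The 3 Melphalan libraries lie apart at the lower left for Slc1a1, and Mel+MSC library 3 has the least Slc3a2 of the 12 libraries.

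MSC+Mel against Mel+MSC sets the 2 combined groups side by side, and 0 of the 10 carriers were called in limma, with 1 at an unadjusted p under 0.05, as 12.2% of all genes were. Over all genes 0.00778% were called. Slc6a19 and Slc15a1 were higher in every MSC+Mel library than in every Mel+MSC library, as were 11.7% of all tested genes. Slc6a19 averaged 185 ± 16 FPKM in MSC+Mel and 118 ± 18 FPKM in Mel+MSC (SD, n = 3 each; log2 change 0.66, 95% interval 0.02 to 1.30, limma adjusted p = 0.405). Slc15a1 averaged 213 ± 23 FPKM in MSC+Mel and 152 ± 9.3 FPKM in Mel+MSC (log2 change 0.48, 95% interval -0.03 to 1.0, limma adjusted p = 0.439). Slc1a1 differed by -0.19 (95% interval -0.74 to 0.37).

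Against Control, Mel+MSC had 0 called carriers and 0 with an unadjusted p under 0.05 in limma, where 0.0% of all genes were called and 694 had an unadjusted p under 0.05. All 10 carriers overlapped. Slc1a1 averaged 17.1 ± 4.0 FPKM in Mel+MSC and 13.5 ± 3.6 FPKM in Control (SD, n = 3 each; log2 change 0.33, 95% interval -0.23 to 0.88, limma adjusted p = 0.964).

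MSC+Mel against Control had 0 called carriers as well in limma, with 3 at an unadjusted p under 0.05 (11.7% of all genes), where 0.171% of all genes were called. A group of 5 carriers, Slc7a8, Slc3a1, Slc6a19, Slc7a7 and Slc15a1, were higher in every MSC+Mel library than in every Control library, which 13.4% of all tested genes were. Slc6a19 differed most, at 185 ± 16 FPKM in MSC+Mel and 99.6 ± 27 FPKM in Control (log2 change 0.93, 95% interval 0.29 to 1.57, limma adjusted p = 0.258). Slc15a1 followed with a log2 change of 0.86 (95% interval 0.35 to 1.38, adjusted p = 0.206). For Slc1a1 the log2 change was 0.14 (95% interval -0.42 to 0.69). The 3 comparisons with Control share its libraries, and the 3 calls of Slc1a1 all rest on the same Melphalan libraries.

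By group means Slc1a1 ran in the order Mel+MSC, MSC+Mel, Control and Melphalan. Of the neighbouring groups, only Melphalan and Control differed beyond the spread between libraries, and the other 3 groups overlapped.

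**Figure D4:**
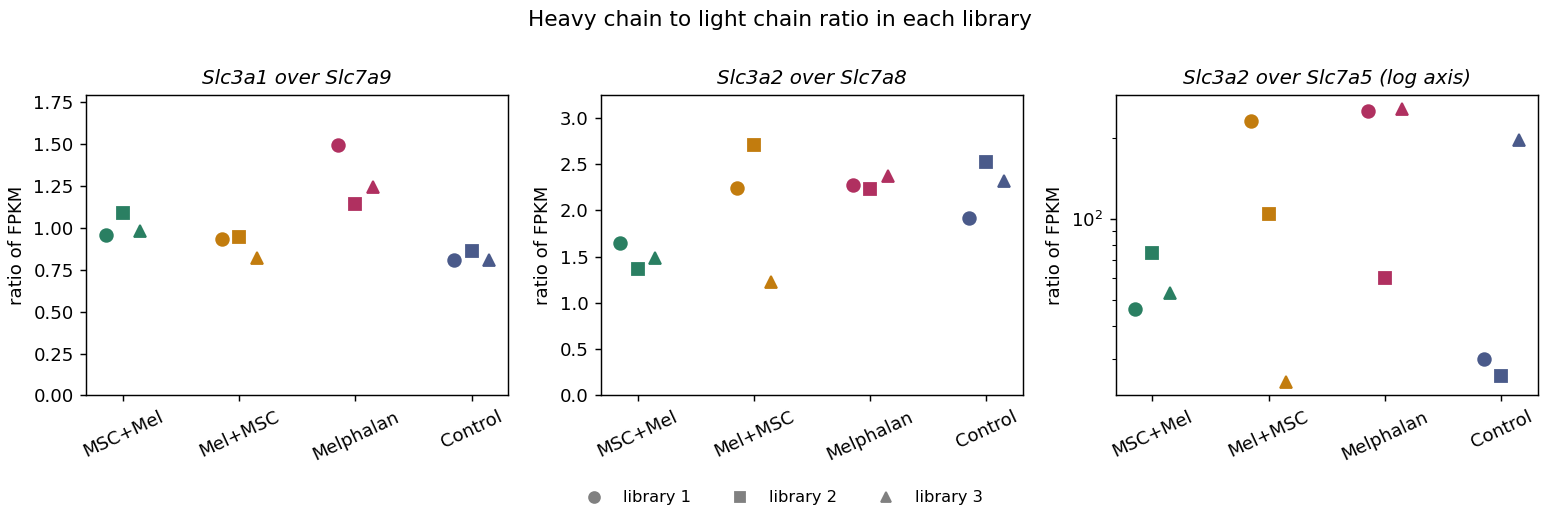
Ratios of heavy chain to light chain FPKM for Slc3a1 over Slc7a9, Slc3a2 over Slc7a8 and, on a log axis, Slc3a2 over Slc7a5, with 1 point per library and the 4 groups on the horizontal axis. Slc3a1 over Slc7a9 is at 1.14 or more in Melphalan and at or under 0.860 in Control, and Slc3a2 over Slc7a5 spans 24.7 to 257 over all libraries.

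Within the LAT1 pair the ratio varied widely among libraries of a group. Slc3a2 over Slc7a5 ran from 46.3 to 74.9 in MSC+Mel, from 24.7 to 231 in Mel+MSC, from 60.2 to 257 in Melphalan and from 25.9 to 197 in Control. MSC+Mel had the narrowest range of the 4 groups and the others overlapped it. FPKM is per length of transcript, so the ratio compares levels of the 2 transcripts and not of the proteins.

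The genes most like the importers over the 12 libraries were read from Pearson's r of log2(FPKM + 1) among 7406 genes, as a description, since libraries of a group share their treatment. Slc7a5 was closest to Mcm5, a subunit of the replicative helicase (r = 0.943), Heatr1, a ribosome biogenesis factor (r = 0.942), and Set (r = 0.930). Slc3a2 was closest to Hagh, a glyoxalase (r = 0.990), Rnf181 (r = 0.976) and Wbp2 (r = 0.973). Between Slc7a5 and Slc3a2 themselves r was -0.68. Slc7a8 was closest to Epha1 (r = 0.950), Reep6 (r = 0.925) and Gstm7 (r = 0.924). Slc1a1 was closest to Prelid2 (r = 0.961), Prc1, a cytokinesis protein (r = 0.952), and Gsdmc4, a gasdermin of the gut (r = 0.949).

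The rest of the carrier family was read from a list of 41 other amino acid and peptide carriers, of which 22 were tested. In limma 0 were called in any of the 6 comparisons. In each, 1 to 5 had an unadjusted p under 0.05, as had 5.4% to 22.2% of all genes. In Melphalan against Control their median log2 change was 0.00, with 11 fitted above 0 and 11 below. Slc7a1 (CAT1), the carrier of arginine and lysine in dividing cells, came nearest: it had 3.43, 3.45 and 2.63 FPKM in Melphalan libraries, against 9.53, 9.79 and 4.30 FPKM in Control libraries. Its log2 change was -1.02 (95% interval -1.64 to -0.41, limma adjusted p = 0.0945). All Melphalan libraries were under all Control libraries, as for 10.7% of all tested genes.

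Slc7a1 was also first of the list in both combined groups against Melphalan. It averaged 8.98 ± 0.56 FPKM in MSC+Mel and 3.17 ± 0.47 FPKM in Melphalan (SD, n = 3 each; log2 change 1.26, limma adjusted p = 0.0535). It averaged 6.84 ± 2.3 FPKM in Mel+MSC (log2 change 0.88 against Melphalan, limma adjusted p = 0.231). Slc38a2 (SNAT2), a carrier of small neutral amino acids, averaged 15.1 ± 4.7 FPKM in Melphalan and 25.9 ± 2.8 FPKM in Control (log2 change -0.78, limma adjusted p = 0.115).

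Slc36a1 (PAT1), a proton-driven carrier of glycine, alanine and proline, led the list against Control in both combined groups. It averaged 51.8 ± 5.1 FPKM in MSC+Mel and 20.1 ± 6.6 FPKM in Control (SD, n = 3 each; log2 change 1.38, limma adjusted p = 0.0672). In Mel+MSC it averaged 40.7 ± 5.8 FPKM (log2 change 1.03 against Control, limma adjusted p = 0.627). None of these differences passed the threshold. Slc43a2 (LAT4), a facilitator for the branched-chain amino acids and phenylalanine, stands outside the naming rule and was chosen after its values were seen. It had 102, 125 and 171 FPKM in Melphalan libraries, against 95.1, 48.2 and 101 FPKM in Control libraries. Its log2 change of 0.74 (95% interval 0.12 to 1.36) was not called (limma adjusted p = 0.2).

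ATF4 raises carriers such as Slc7a5 and Slc3a2 when amino acids run short, so a list of 19 ATF4 targets and stress genes was read beside them, of which 15 were tested. In Melphalan against Control 1 rose and 0 fell, where 1.33% of all genes were called, and the median log2 change of the list was 0.01. Sesn2, a stress-induced sestrin that p53 also raises, had 4.01, 5.39 and 4.81 FPKM in Melphalan libraries, against 1.70, 1.91 and 1.19 FPKM in Control libraries. All Melphalan libraries were above all Control libraries, as for 8.82% of all tested genes. Sesn2 rose by 1.14 on the log2 scale (SE 0.19, limma adjusted p = 0.0187).

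Asns, the asparagine synthetase that ATF4 raises and a gene outside the naming rule in this comparison, had 8.16, 3.94 and 9.21 FPKM in Melphalan libraries, against 12.9, 22.4 and 10.9 FPKM in Control libraries. Its log2 change of -1.02 was not called (limma adjusted p = 0.148). In the other 5 comparisons 0 of the 15 were called in limma. At an unadjusted p under 0.05 there were 0 to 4, beside 5.4% to 22.2% of all genes. Ddit3 (CHOP), a transcription factor of the stress response, averaged 8.07 ± 1.6 FPKM in MSC+Mel and 20.7 ± 4.0 FPKM in Melphalan (SD, n = 3 each; log2 change -1.25, limma adjusted p = 0.128).

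Among the brush border peptidases and partners 0 of 11 were called in limma in any comparison. At an unadjusted p under 0.05 there were 0 to 6, beside 5.4% to 22.2% of all genes. Anpep, the aminopeptidase N that frees amino acids for these carriers, averaged 2110 ± 360 FPKM in MSC+Mel and 6250 ± 1900 FPKM in Melphalan (SD, n = 3 each; log2 change -1.52, limma adjusted p = 0.0936).

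The remaining genes nearest to a call in each list were not called either, by limma. Among the other carriers, Slc15a3, a peptide carrier of lysosomes, averaged 0.535 ± 0.73 FPKM in Mel+MSC and 3.64 ± 4.5 FPKM in Melphalan (adjusted p = 0.359), where Melphalan library 2 alone had 8.87 FPKM. Slc36a1 averaged 51.8 ± 5.1 FPKM in MSC+Mel and 31.8 ± 7.2 FPKM in Melphalan (adjusted p = 0.151). Slc6a17 averaged 0.286 ± 0.059 FPKM in MSC+Mel, 1.70 ± 0.95 FPKM in Mel+MSC and 0.756 ± 0.68 FPKM in Control, with an adjusted p of 0.298 between the combined groups and of 0.944 for Mel+MSC against Control. Slc38a10 averaged 31.2 ± 6.3 FPKM in MSC+Mel and 21.4 ± 9.5 FPKM in Mel+MSC (adjusted p = 0.443). Slc38a2 averaged 15.9 ± 0.58 FPKM in MSC+Mel and 25.9 ± 2.8 FPKM in Control (adjusted p = 0.317).

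Among the peptidases, Dpep1 averaged 196 ± 9.7 FPKM in MSC+Mel, 179 ± 59 FPKM in Mel+MSC, 285 ± 88 FPKM in Melphalan and 146 ± 46 FPKM in Control. Its adjusted p in limma was 0.354 for Mel+MSC against Melphalan and 0.602 for MSC+Mel against Control. Naaladl1 averaged 165 ± 47 FPKM in MSC+Mel and 378 ± 140 FPKM in Melphalan (limma adjusted p = 0.117). Mme, or neprilysin, averaged 319 ± 54 FPKM in MSC+Mel, 192 ± 78 FPKM in Mel+MSC and 203 ± 57 FPKM in Control, with an adjusted p in limma of 0.403 between the combined groups and of 0.483 for MSC+Mel against Control. In Mel+MSC against Control the nearest were Enpep, a glutamyl aminopeptidase, and Anpep, both at an adjusted p of 0.944 in limma.

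Among the ATF4 and stress genes, Sesn2 averaged 3.03 ± 0.59 FPKM in MSC+Mel, 2.22 ± 0.25 FPKM in Mel+MSC, 4.74 ± 0.69 FPKM in Melphalan and 1.60 ± 0.37 FPKM in Control (SD, n = 3 each). Both combined groups lay between Melphalan and Control by their means. Its adjusted p in limma was 0.152 for MSC+Mel against Melphalan, 0.122 for Mel+MSC against Melphalan and 0.236 for MSC+Mel against Control. Asns averaged 15.7 ± 6.5 FPKM in Mel+MSC and 7.10 ± 2.8 FPKM in Melphalan (limma adjusted p = 0.240). Trib3, a pseudokinase induced with Ddit3, averaged 5.84 ± 0.82 FPKM in MSC+Mel and 2.99 ± 2.1 FPKM in Mel+MSC (limma adjusted p = 0.403), against 2.88 ± 1.3 FPKM in Control (limma adjusted p = 0.411). Atf3 averaged 10.7 ± 3.7 FPKM in MSC+Mel, 4.53 ± 0.96 FPKM in Mel+MSC and 9.50 ± 4.5 FPKM in Control, with an adjusted p in limma of 0.403 between the combined groups and of 0.944 for Mel+MSC against Control. Mthfd2, a mitochondrial folate enzyme, averaged 5.10 ± 0.94 FPKM in Mel+MSC and 7.72 ± 2.5 FPKM in Control (limma adjusted p = 0.944).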

How the data were processed

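Total RNA of mouse small intestine was sequenced in 12 libraries, 3 per group. The deposited FPKM values came from STAR alignment followed by Cufflinks and Cuffnorm, per the submitters' processing notes, which name the builds mm10 and GRCm38. Versions, the annotation release and the scaling between libraries are not given in the sources used here. Depth is unknown, so the spread between libraries is the measure of precision. All 12 columns were matched to labelled samples.

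Gene coordinates are from GENCODE M21 (GRCm38). A gene was tested where 3 libraries or more reached 1 FPKM. In R 4.3.3, limma 3.58.1 modelled log2(FPKM + 1) with an intensity trend, all 12 libraries together and 8 residual degrees of freedom. The groups shared a spread in that fit. Their mean residual variances over genes were 0.0806 in MSC+Mel, 0.176 in Control, 0.293 in Mel+MSC and 0.42 in Melphalan. Intervals may thus be too narrow in comparisons with Melphalan and too wide for MSC+Mel against Control. Benjamini-Hochberg adjustment of two-sided p-values ran over 12847 genes for each of 6 comparisons and for 1 F test, and an adjusted p under 0.05 was a call. The fit was tested on simulated data. A fold change on this scale understates the change of low genes.

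The members and lists were chosen with earlier results of these data known. All 10 members were named. Of the lists of other carriers, peptidases and ATF4 targets, each called gene was named (at most 3 per list and direction), or the 2 with the smallest p where none was called. 1 gene that the rule names is not reported here. Marker genes, Slc43a2, and Asns in the drug comparison stand outside that rule, chosen after their values were seen. The 3 genes most like Slc7a5, Slc3a2, Slc7a8 and Slc1a1 were taken by Pearson's r among 7406 tested genes with a mean of 5 FPKM or more, leaving out the members, predicted genes, small RNAs and genes on X or Y.

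Libraries with the same replicate number deviated together weakly in Melphalan and Control (r = 0.124, 0.233 and 0.184 over genes). That is at most a weak hint of pairing, which the labels do not state. Between Mel+MSC and Melphalan r was larger for library 2 (0.396) and below 0 for library 3 (-0.177). The replicate block was fitted over all 12 libraries. Each result was recomputed with a pseudocount of 0.1, without the filter, with a mean of 5 FPKM as the filter, with quantile, median-of-ratios and pan-epithelial scaling (12 genes), the replicate block, array weights or no intensity trend, without each library, and in fits on the 2 groups compared. Figures used Python 3.11.15 and matplotlib 3.10.9.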

Additional observations from a re-analysis of the deposited data

How the results depend on the processing

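The main limits are 3 libraries a group, unknown depth and no labels for animals. Slc1a1 kept its direction in all alternatives run for its 3 called changes: -1.98 to -1.45 in Melphalan against Control, 1.64 to 2.33 in Mel+MSC against Melphalan and 1.59 to 2.13 in MSC+Mel against Melphalan, with adjusted p-values in limma up to 0.109, 0.216 and 0.0800. The causes of the changes below were not tested.

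In Melphalan against Control 1 carrier was called, against 4 with pan-epithelial scaling, 8 with array weights, 0 in a fit on the 2 groups, and 0 to 3 with 1 library left out (0 without Control library 1 or 2, 2 without Control library 3, 3 without Melphalan library 2). In Mel+MSC against Melphalan 1 was called, against 0 without the filter, 3 with pan-epithelial scaling, 0 with the replicate block (Slc1a1 adjusted p = 0.0906), 5 with array weights, 0 in a fit on the 2 groups and 0 to 1 with 1 library left out. In MSC+Mel against Melphalan 1 was called, against 5 with array weights and 0 to 1 with 1 library left out; the block kept Slc1a1 (adjusted p = 0.0492). Array weights called 3 carriers in MSC+Mel against Mel+MSC and 4 in MSC+Mel against Control, where 0 were called. The F test called 1, against 4 with pan-epithelial scaling, 0 with the replicate block, 8 with array weights and 0 to 1 with 1 library left out (0 without Melphalan library 1 or 3 or MSC+Mel library 2).

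Slc1a5 turned to a called log2 change of 0.46 with array weights in MSC+Mel against Melphalan, from -0.06. The array weights did not converge, and called 3543 genes in Melphalan against Control. Pan-epithelial scaling moved the median log2 change of all genes to 0.32 in Melphalan against Control, -0.43 in Mel+MSC against Melphalan, -0.18 in MSC+Mel against Melphalan, 0.27 in MSC+Mel against Mel+MSC, -0.11 in Mel+MSC against Control and 0.16 in MSC+Mel against Control.

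Calls over all genes in the 6 comparisons, in the order of the results, were 171, 20, 159, 1, 0 and 22, and with the replicate block 73, 3, 20, 0, 1 and 5. With 1 library left out they ranged from 9 to 423, 0 to 34, 6 to 941, 0 to 404, 0 to 2 and 0 to 40. Outside Melphalan and Control, same-numbered libraries did not all deviate together, so they share only a number. Of 1314 alternatives for single carriers, 14 lost a call, 29 gained one in the same direction and 1 gained one with the sign reversed. In all 62 values changed sign, and that reversed call of Slc1a5 is 1 of them.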
